A study of Mus musculus with 16 samples.

Results

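The 10 genes described here encode enzymes and subunits that write, copy and remove 2 repressive chromatin marks. Dnmt1, Uhrf1, Dnmt3a, Dnmt3b, Tet1, Tet2 and Tet3 act on DNA methylation, and Ezh2, Eed and Suz12 form the core of Polycomb repressive complex 2 (PRC2). The genes were selected by name with their values in these libraries already known, so the levels and the differences between derivative and parental cultures are a description. All 10 have a row among the 13474 genes of the deposited table, and 8 passed the filter used for the fits across genes, at least 1 FPKM in at least 2 libraries. Tet1 and Tet2 did not pass it.

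The 16 libraries came from 5 lines of mouse T-ALL, acute leukaemia of T-cell precursors, taken from the thymus and kept in DMEM with 10% serum. Lines 2883, 2696, 2641 and 2869 carry Mcm2cre/cre, a Cre insertion that lowers the replication helicase subunit Mcm2, and line 7298 is SCL/LMO1 transgenic. Each line has 1 parental culture, labelled as treated with PBS, and 11 derivatives are resistant to 1 drug each. Lines 7298, 2883 and 2869 have a derivative for cytarabine, which terminates DNA synthesis, and lines 2883, 2696 and 2869 one for vincristine, which blocks microtubules. Lines 2883 and 2696 have one for etoposide, a topoisomerase II poison, lines 2883 and 2641 one for prednisone, a glucocorticoid, and line 2883 one for methotrexate, an antifolate. Every culture is 1 library, the labels do not say whether derivatives are single clones, and p-values rest on the spread between cultures. The 5 derivatives of line 2883 share 1 parental library, as do the 2 derivatives of line 2696 and the 2 of line 2869.

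Maintenance methylation copies the methyl marks of CG sites onto the new DNA strand after replication: Uhrf1 binds hemimethylated DNA and brings in Dnmt1. Dnmt3a and Dnmt3b set methyl groups at sites that had none, and the Tet dioxygenases oxidise 5-methylcytosine, which leads to its loss. In PRC2, Ezh2 is the methyltransferase for lysine 27 of histone H3, Eed binds the finished mark and stimulates the enzyme, and Suz12 holds the complex together. In T-ALL these genes are known for loss-of-function mutations, those of DNMT3A and of PRC2 genes among them, and Dnmt1, Uhrf1 and Ezh2 are known as genes that E2F factors switch on in dividing cells.

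Motifs of E2F factors were looked for in the promoters. Windows of 300 bases, from 250 before to 50 after each RefSeq gene start (GRCm38.p6, the build also called mm10), were found for 10 of 10 members, 15 windows in all. They were searched on both strands for 4 E2F motifs, TTTCCCGC, TTTGGCGC, TTTCGCGC and TTTGCCGC. Any of these occurred in 2.26% of 32851 promoter windows of that length, and in windows of 4 members, Dnmt1, Uhrf1, Ezh2 and Suz12. The stretches below are shown because they hold each match, printed 5′ to 3′ on the strand of the gene, with the motif in capitals. The 2 stretches of Dnmt1 lie in 1 of its 3 windows, chr9:20952824-20952853 and chr9:20952574-20952603, both minus strand, with the motif at -219 on the opposite strand and at 34 on the strand of the gene. That of Uhrf1, in 1 of its 2 windows, is chr17:56304117-56304146 (plus strand, motif at -185), that of Ezh2 chr6:47595009-47595038 (minus strand, at 4) and that of Suz12 chr11:79992876-79992905 (plus strand, at -219). Positions are counted from the RefSeq start of the window that holds the match. For Dnmt1 and Uhrf1 this is the start farthest downstream, and their other windows held no match.
Dnmt1, first: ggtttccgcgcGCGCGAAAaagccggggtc
Dnmt1, second: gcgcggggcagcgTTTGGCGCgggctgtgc
Uhrf1: cccgagtcgggTTTCGCGCgcccaggcgtc
Ezh2: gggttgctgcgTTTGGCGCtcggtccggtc
Suz12: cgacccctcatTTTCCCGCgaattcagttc
No window of Dnmt3a, Dnmt3b, Eed or the 3 Tet genes held these letters. A match is a description of the sequence and not a bound site. CG dinucleotides, the substrate of the Dnmt enzymes, were densest in the windows of Tet2, with 57 CG, a number that 0.152% of all windows reached. The Dnmt3a windows held 46, 47 and 18 CG, and the Suz12 window held 41.

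The 5 parental libraries were shallower (12142000 to 13498000 reads) than all 11 resistant ones (14066000 to 18956000 reads), and mitochondrial transcripts made up 2.31% to 5.53% of them. Mcm2 was at 20.9 and 29.2 FPKM in line 7298 and at 3.53 to 12.2 FPKM in the 14 Mcm2cre/cre libraries. Lmo1 was at 6.07 and 7.37 FPKM in line 7298 and at most 0.000225 FPKM elsewhere. All 16 T lineage markers were in the table, with a summed level of 5524 to 8787 CPM (reads scaled to the library total) in parental and 4968 to 9363 CPM in resistant libraries. Of the markers of other cells, 1 of 6 B cell genes (Cd79b, at most 13.2 CPM) and 2 of 7 myeloid genes (summed, at most 34.3 CPM) had a row. So did 2 of 8 stromal genes (Pecam1 and Pdgfra), summed at 26.98 to 154.2 CPM in parental and 27.4 to 220.4 CPM in resistant libraries. Most of this sum was Pecam1, at 25.5 to 220.4 CPM, while Pdgfra reached at most 7.81 CPM. No erythroid or NK cell marker had a row. In such bulk cultures, fewer cells with a transcript and less transcript per cell cannot be told apart.

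Scaled to exon length, the maintenance pair and PRC2 were the abundant members, and Dnmt3a, Dnmt3b, Tet1 and Tet2 the scarce ones. Levels between genes are compared as CPM per kilobase of exon, since the deposited FPKM divides by the whole gene with its introns. Uhrf1 was highest with a median of 99.3 (50.3 to 142.2 over 16 libraries), followed by Dnmt1 with 72.6 (44.0 to 94.1), and Uhrf1 was above Dnmt1 in 15 of 16 libraries. Suz12 followed with 69.2 (46.1 to 112.0), then Ezh2 with 39.5 (24.7 to 95.04) and Eed with 15.3 (11.3 to 24.7). Tet3 was the most abundant Tet gene, at 10.4 (7.79 to 18.5), and was above Tet1 and above Tet2 in 16 of 16 libraries. Below it came Dnmt3b with 4.98 (0.926 to 10.1), Dnmt3a with 3.99 (0.000349 to 15.8), Tet1 with 2.91 (0.00527 to 6.48) and Tet2 with 1.16 (0.000313 to 7.68). Each neighbouring pair in this order overlapped in range. The order of Dnmt3b and Dnmt3a, of Dnmt3a and Tet1, and of Tet1 and Tet2 was not settled: the first of each pair was higher in 9, 8 and 8 of 16 libraries.

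**Figure D1:**
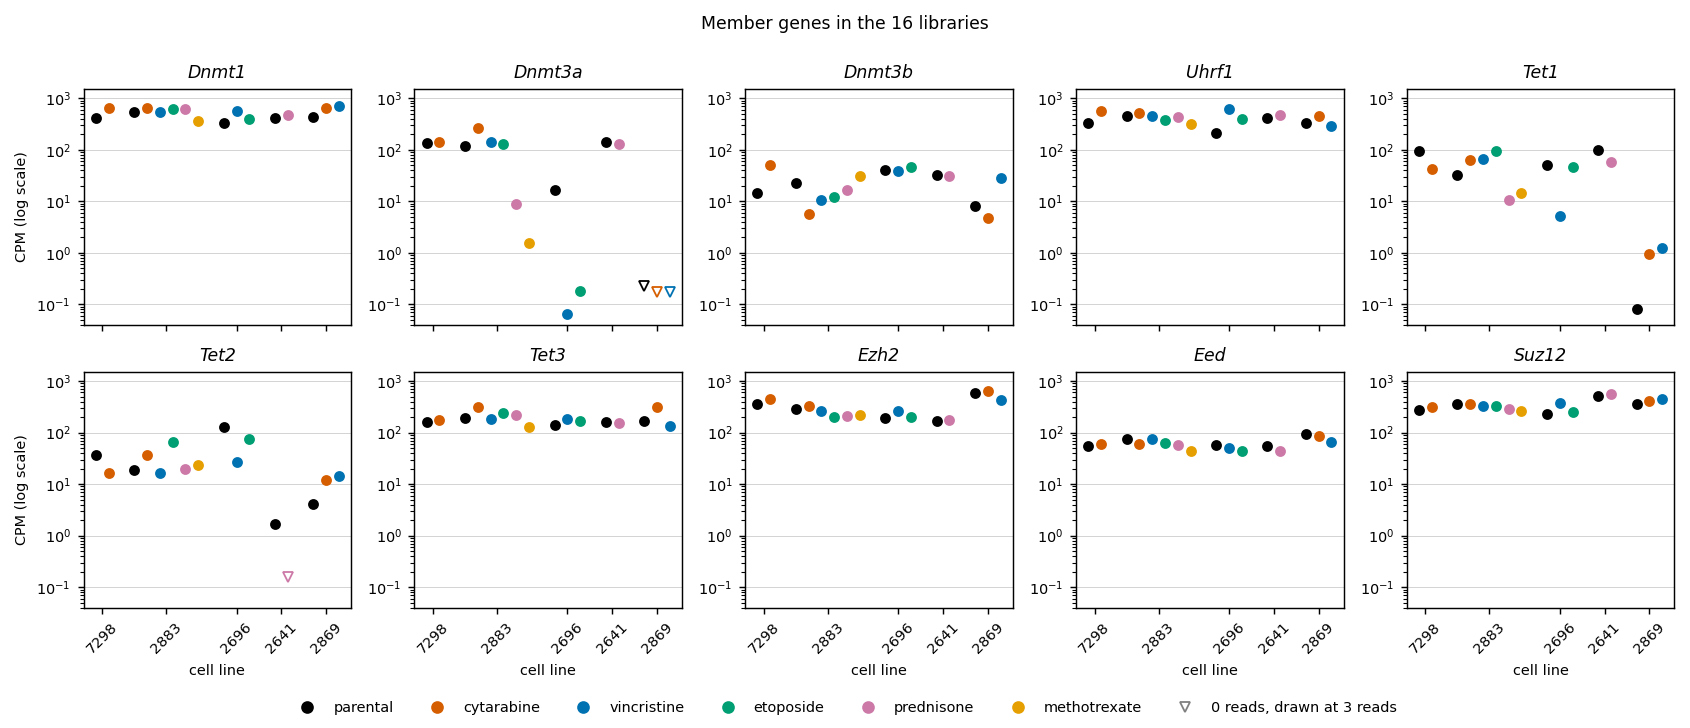
CPM of each member (y axis, log scale) in the 16 libraries, grouped on the x axis by cell line; each point is 1 library, coloured by drug, and an open triangle stands for 0 reads and is drawn at 3 reads. Dnmt1, Uhrf1, Tet3 and the PRC2 genes stay within a narrow band, while Dnmt3a, Tet1 and Tet2 span several orders of magnitude.

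Dnmt3a (chromosome 12, 3806007 to 3914443, plus strand) was absent in line 2869 and present in the parental libraries of the other lines. It was far below the parental level in 4 of the 9 derivatives whose parental culture had it. In line 7298 it was at 135.1 CPM in the parental and 144.1 CPM in the cytarabine-resistant library, and in line 2641 at 138.8 CPM in the parental and 127.2 CPM in the prednisone-resistant library. In line 2869 all 3 libraries held 0 reads, which allows at most 0.222 CPM in the parental, 0.177 CPM in the cytarabine-resistant and 0.174 CPM in the vincristine-resistant library. A line without Dnmt3a reads thus gave derivatives resistant to 2 drugs. Of 9445 genes with at least 50 reads in each of the other 4 parental libraries, 42 (0.445%), Dnmt3a among them, had at most 3 reads in all 3 libraries of line 2869.

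In line 2883, Dnmt3a was at 116.4 CPM in the parental library, and its derivatives went both ways. The cytarabine-resistant library had 262.5 CPM, 2.26 times the parental value (95% counting interval 2.13 to 2.40), the vincristine-resistant one 142.5 CPM and the etoposide-resistant one 130.2 CPM. The prednisone-resistant library had 8.96 CPM, 13.0-fold lower (11.0 to 15.4), and the methotrexate-resistant one 1.57 CPM, 74.4-fold lower (48.9 to 119.1). The 5 derivatives of this single parental culture therefore fell into 3 at or above its level and 2 far below it. Line 2696 started lower, with 16.5 CPM (216 reads) in the parental library. Its vincristine-resistant library held 1 read, a ratio of 0.00367 (9.24e-05 to 0.0206), and its etoposide-resistant library 3 reads, a ratio of 0.0106 (0.00217 to 0.0314). Each drug that has a derivative with low Dnmt3a, other than methotrexate with 1 derivative, also has one in which Dnmt3a was near or above its parental level: vincristine and etoposide in line 2883, and prednisone in line 2641. All intervals here cover counting error only.

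The genes beside Dnmt3a were read in the same libraries, a choice made after its values were seen. Near-absence extended past Dnmt3a in lines 2696 and 2883 but not in line 2869. Efr3b, 48.1 kb downstream, held 5, 1 and 0 reads in the parental, vincristine- and etoposide-resistant libraries of line 2696. In line 2883 Efr3b had 175 reads in the parental library and 0 in both the prednisone- and the methotrexate-resistant library, with 377 to 1183 reads in the other 3 derivatives. Dnajc27, 168.1 kb downstream, had 0 reads in all 3 libraries of line 2696 and in the prednisone-resistant library of line 2883, but 272 reads in the methotrexate-resistant one, against 172 in the parental. In line 2869, where Dnmt3a was at 0, Efr3b had 994 to 1930 reads and Dnajc27 143 to 394. Adcy3, 218.7 kb downstream, was 5.22 times its parental level in the prednisone-resistant library of line 2883, with 2090 reads against 283. Upstream, Asxl2 held 409 to 2817 reads over the 16 libraries and Dtnb, 24.2 kb away, 15 to 497. Both were lowest in the vincristine-resistant library of line 2696, where the parental library had 784 and 76 reads. The etoposide-resistant library of that line had more of both, 1183 and 133 reads. In line 2869 Dtnb was at 2.30 to 4.85 CPM, against 0.911 to 26.2 CPM in the other lines. Over the table, of genes with at least 50 parental reads, 0.241% to 1.04% per derivative had at most 3 reads. Whether copy number or gene silencing differs in this region was not tested.

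**Figure D2:**
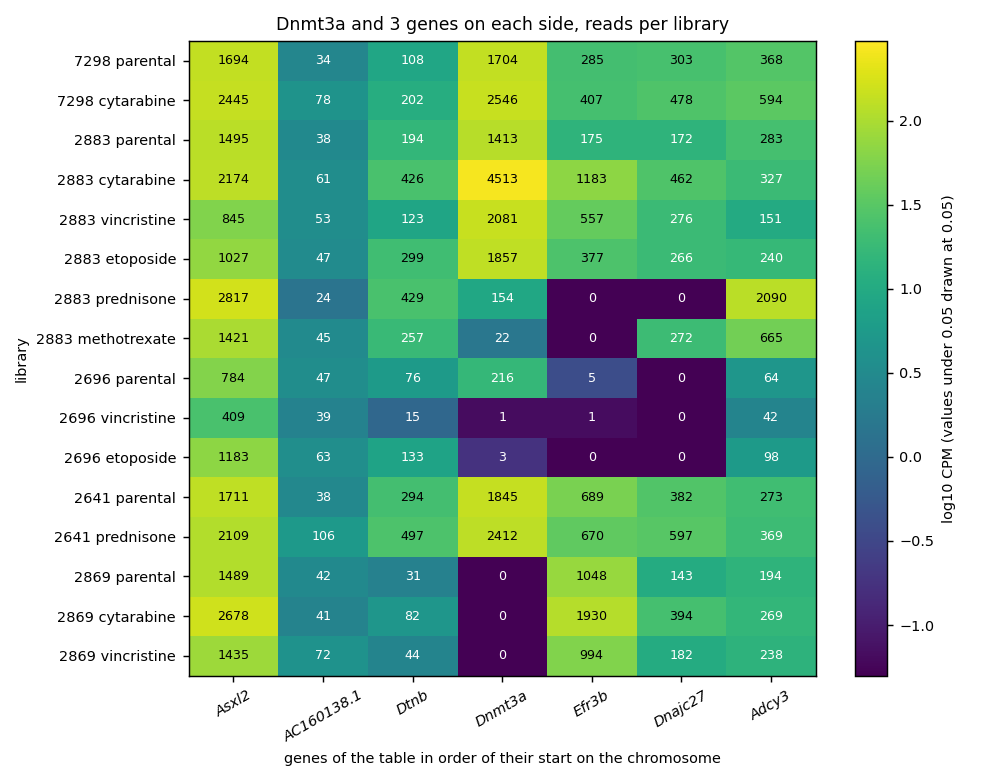
Reads (numbers) and log10 CPM (colour) of Dnmt3a and the 3 genes of the table on each side (x axis, by start on the chromosome) in the 16 libraries (y axis). Dnmt3a is at 0 in the 3 libraries of line 2869 while Efr3b and Dnajc27 are present, and Dnmt3a and Efr3b are low together in line 2696 and in 2 derivatives of line 2883.

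Dnmt3b (chromosome 2, 153649450 to 153687730, plus strand) differed in direction among derivatives of the same drug. Cytarabine-resistant cells of line 7298 had 51.3 CPM against 14.5 CPM in the parental library, 3.54 times as much (3.01 to 4.17). Those of line 2883 had 5.65 CPM against 22.3 CPM, a ratio of 0.253 (0.198 to 0.320), and those of line 2869 had 4.73 CPM against 8.16 CPM. Vincristine-resistant libraries were split too, with 28.6 CPM against 8.16 CPM in line 2869 (ratio 3.50, 2.84 to 4.35), 10.5 CPM against 22.3 CPM in line 2883, and 38.7 CPM against 40.4 CPM in line 2696. The etoposide-resistant libraries had 12.3 CPM in line 2883 and 46.4 CPM in line 2696, the prednisone-resistant ones 16.8 CPM in line 2883 and 30.8 CPM in line 2641 (parental 32.4 CPM), and the methotrexate-resistant one 31.6 CPM. Over the 11 derivatives Dnmt3b was above its parental level in 4 and below in 7.

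The 2 de novo enzymes were also set beside each other per kilobase of exon. Dnmt3b exceeded Dnmt3a in 9 libraries and Dnmt3a exceeded Dnmt3b in 7, and the Dnmt3a to Dnmt3b ratio was highest, at 14.3, in the cytarabine-resistant library of line 2883. In that library Dnmt3a was higher and Dnmt3b lower than in the parental culture, each at least 2-fold. In all 16 libraries Dnmt1 was above both.

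Dnmt1 and Uhrf1, the maintenance pair, were present in every library. Dnmt1 (chromosome 9, 20907209 to 20959888, minus strand) was at 324.8 to 536.2 CPM in the 5 parental libraries and at 356.1 to 694.1 CPM in the 11 resistant ones, and the 2 ranges overlap. It was above its own parental level in 9 of 11 derivatives, each with a counting interval above 1. Derivatives of 1 line share its parental library, so these 9 are not independent. The vincristine-resistant library of line 2696 had the highest ratio, 1.76 (1.70 to 1.82), with 571.5 CPM against 324.8 CPM. The vincristine-resistant library of line 2883 equalled its parental culture (ratio 0.997, 0.964 to 1.03), and only the methotrexate-resistant one had a counting interval below 1, at 0.664 (0.640 to 0.689). Since every resistant library is also deeper than every parental one, depth and resistance cannot be told apart here.

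Uhrf1 (chromosome 17, 56303321 to 56323486, plus strand) ranged from 214.2 CPM in the parental library of line 2696 to 605.8 CPM in the vincristine-resistant library of the same line. That pair gave its highest ratio, 2.83 (2.71 to 2.95). The etoposide-resistant library of line 2696 had 394.4 CPM, 1.84 times the parental level. Uhrf1 was above the parental level in the 3 cytarabine-resistant libraries, at 1.71 times in line 7298, 1.16 times in line 2883 and 1.35 times in line 2869. It was lowest relative to the parental culture with methotrexate, at 0.689 (0.662 to 0.717). Over the 11 derivatives, 6 were above the parental level and 5 below.

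Tet1 (chromosome 10, 62804570 to 62908996, minus strand) and Tet2 (chromosome 3, 133463679 to 133545139, minus strand), oxidases of methylated cytosine, were scarce and variable. Tet1 was at 92.6 CPM in the parental library of line 7298, 32.1 in that of line 2883, 51.1 in that of line 2696, 100.2 in that of line 2641 and 0.0815 (1 read) in that of line 2869. Line 2869 stayed low in its derivatives too, with 16 reads in the cytarabine-resistant and 21 in the vincristine-resistant library, so the 3 libraries that lacked Dnmt3a reads also had the 3 lowest Tet1 levels. Within line 2883, with 1 library per drug, Tet1 went both ways among the derivatives. It was 1.94 times the parental level with cytarabine, 2.09 times with vincristine and 2.97 times with etoposide, but 0.336 with prednisone and 0.455 with methotrexate. The same 3 derivatives had Dnmt3a above the parental level and the same 2 had it below. Outside line 2883 the lowest Tet1 ratio was 0.103 (0.0813 to 0.129), in the vincristine-resistant library of line 2696, with 87 reads against 670. Dnmt3a was low there too, and with prednisone in line 2641 the ratios were 0.581 for Tet1 and 0.917 for Dnmt3a. The 2 genes parted with etoposide in line 2696 (Tet1 0.918, 0.828 to 1.02, Dnmt3a 0.0106) and with cytarabine in line 7298 (Tet1 0.464, Dnmt3a 1.07).

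Tet2 was highest in the parental library of line 2696, at 129.5 CPM, and its resistant libraries had 27.1 CPM with vincristine, a ratio of 0.209 (0.188 to 0.232), and 74.6 CPM with etoposide. In line 2883 the parental library had 19.0 CPM and the etoposide-resistant one 65.6 CPM, 3.45 times as much (2.98 to 4.00), and the cytarabine-resistant one had 36.5 CPM. It was lower in the cytarabine-resistant library of line 7298, with 16.2 CPM against 36.9 CPM. In line 2869 it was higher in both derivatives, with 4.15 CPM in the parental, 12.1 CPM in the cytarabine-resistant and 14.1 CPM in the vincristine-resistant library. In line 2641 Tet2 was nearly absent, with 22 reads in the parental and 0 in the prednisone-resistant library, at least 10.5-fold lower against a floor of 3 reads per library. With the counting error of the 22 reads included, the 95% interval of this ratio reaches up to 0.128. Line 2641 thus lacked Tet2 but had the highest parental Tet1 level, and line 2696 had the highest parental Tet2 level.

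Tet3 (chromosome 6, 83362373 to 83459084, minus strand) was steadier. It was at 140.5 to 188.3 CPM in the parental and at 130.1 to 309.0 CPM in the resistant libraries, and these ranges overlap. The 2 highest values were cytarabine-resistant libraries, 308.8 CPM in line 2883 (ratio 1.64, 1.56 to 1.72) and 309.0 CPM in line 2869 (ratio 1.86, 1.77 to 1.96). The third cytarabine-resistant library, of line 7298, had 177.3 CPM against 157.1 CPM (ratio 1.13, 1.07 to 1.20).

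**Figure D3:**
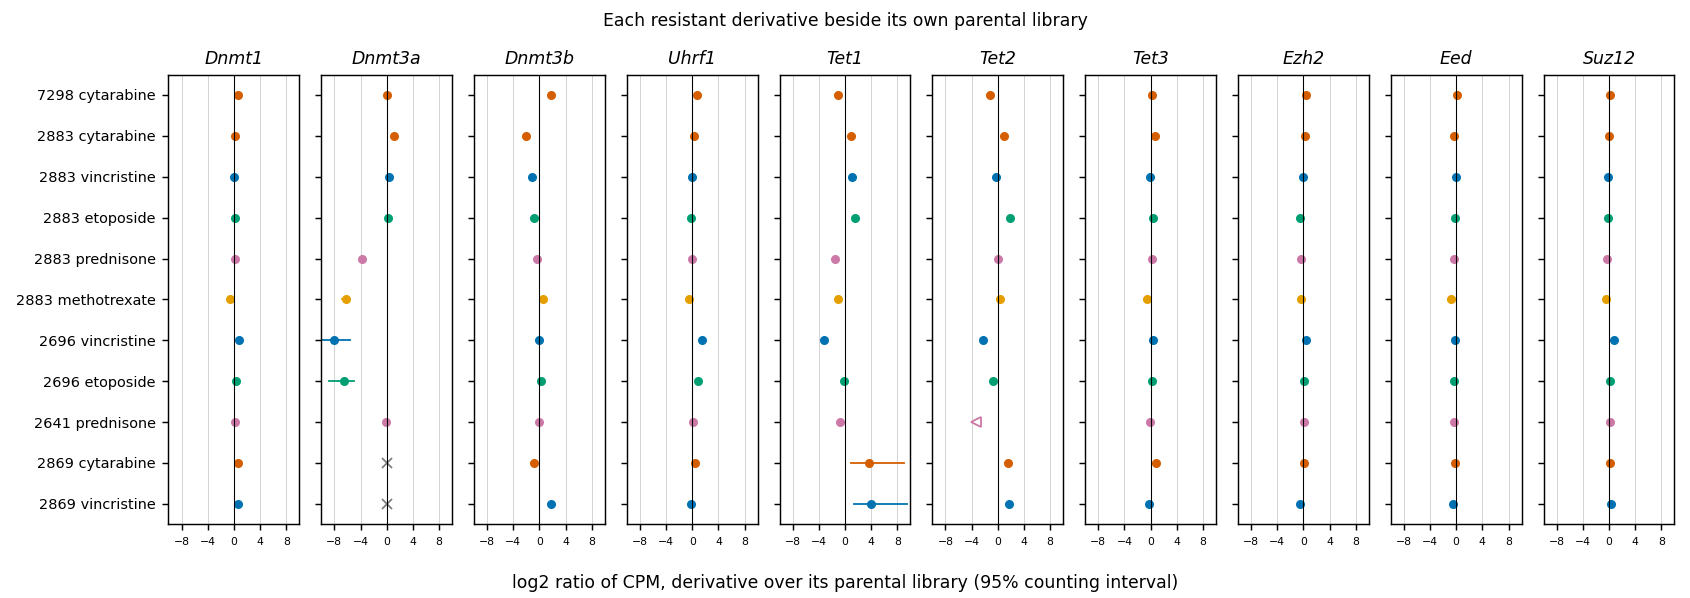
Log2 ratio of CPM of each of the 11 resistant derivatives (y axis) over its parental library (x axis), 1 panel per member; points are ratios, bars are 95% counting intervals, the open triangle is a bound against 3 reads and grey crosses mark 0 reads in both libraries. Dnmt3a, Tet1 and Tet2 lie far from 0 in several derivatives, and Eed lies at or below 0 in 10 of 11.

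Among the PRC2 genes, the 2 highest Ezh2 levels were in line 2869 and the 2 highest Suz12 levels in line 2641. Ezh2 (chromosome 6, 47530139 to 47595341, minus strand) was at 583.6, 634.6 and 423.9 CPM in the parental, cytarabine- and vincristine-resistant libraries of line 2869, and at 164.7 to 444.1 CPM in the other 13 libraries. Suz12 (chromosome 11, 79993106 to 80034123, plus strand) was at 509.5 and 553.9 CPM in line 2641 and at 227.8 to 446.2 CPM in the other 14 libraries, so line 2641 stood above all others. Line 2641 also had the 2 lowest Ezh2 levels, 164.7 and 173.9 CPM. Per kilobase of exon, Ezh2 over Suz12 was 0.233 and 0.239 in line 2641, 0.446 to 0.654 in line 2883, 0.518 to 0.637 in line 2696, 0.947 and 1.04 in line 7298 and 0.704 to 1.22 in line 2869. The balance between catalytic and scaffold transcripts therefore separated line 2641, in its parental and resistant library alike, from the other 4 lines.

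Relative to the parental cultures, Ezh2 was higher in 6 and lower in 5 derivatives, with ratios from 0.700 (0.666 to 0.736), with etoposide in line 2883, to 1.36 (1.29 to 1.42), with vincristine in line 2696. Suz12 was higher in 7 and lower in 4, from 0.717 (0.686 to 0.749) with methotrexate to 1.67 (1.60 to 1.74), with vincristine in line 2696. Eed (chromosome 7, 89954654 to 89980983, minus strand) was the most uniform in direction: it was below the parental level in 10 of 11 derivatives, 9 of them with a counting interval below 1. Its levels were 55.3 to 94.4 CPM in the parental and 43.2 to 85.0 CPM in the resistant libraries, which overlap. Derivatives of 1 line share its parental library, so the 10 are not independent. The highest parental Eed levels were 94.4 CPM in line 2869 and 74.7 CPM in line 2883. The lowest ratio was 0.578 (0.520 to 0.641), with methotrexate, and the exception was the cytarabine-resistant library of line 7298, at 1.08 (0.978 to 1.19). As for Dnmt1, depth and resistance cannot be told apart in this direction.

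**Figure D4:**
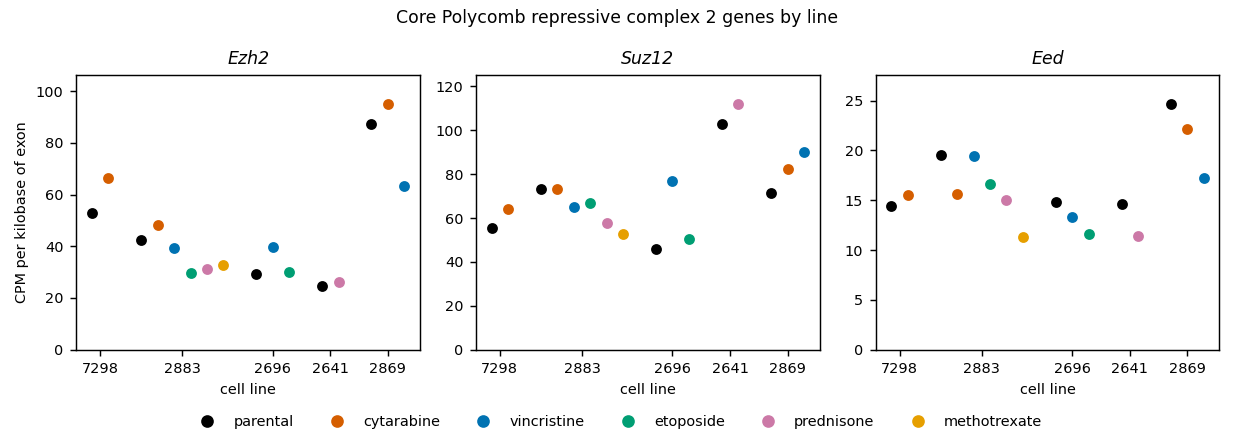
CPM per kilobase of exon (y axis, from 0) of Ezh2, Suz12 and Eed in each library, grouped on the x axis by cell line and coloured by drug. Line 2869 has the highest parental and cytarabine-resistant Ezh2 levels, and both libraries of line 2641 have the highest Suz12 levels.

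The members were also counted at a 2-fold difference, beside all genes with at least 50 reads in either library. In line 7298 with cytarabine, 3 of 10 members (Dnmt3b higher, Tet1 and Tet2 lower) passed 2-fold, against 6.48% of all genes. In line 2883 it was 2 of 10 in each derivative: Dnmt3a higher and Dnmt3b lower with cytarabine (17.5% of genes), Tet1 higher and Dnmt3b lower with vincristine (15.6%), and Tet1 and Tet2 higher with etoposide (20.8%). Dnmt3a and Tet1 were both lower with prednisone (12.3%) and with methotrexate (12.0%). In line 2696, 4 of 10 passed with vincristine, Uhrf1 higher and Dnmt3a, Tet1 and Tet2 lower (14.2%), and Dnmt3a alone, 1 of 10, with etoposide (8.17%). None of 9 passed in line 2641 with prednisone (10.1%). In line 2869, 1 of 8 passed with cytarabine, Tet2 higher (11.9%), and 2 of 8 with vincristine, Tet2 and Dnmt3b higher (13.3%). Since the members were chosen on these values, nothing is read from these counts.

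Across lines, none of the 8 members that passed the filter was called in any comparison of resistant with parental cultures at a Benjamini-Hochberg adjusted p of 0.05 by limma on log2(FPKM + 1). Of all 9309 genes tested, 0% were called for cytarabine, 0% for vincristine, 0% for etoposide, 0.0215% (2 genes) for prednisone and 0% for all resistant cultures together. At an unadjusted p under 0.05 these were 1037, 1289, 827, 853 and 907 genes. By the same measure there were 3 members for cytarabine (Tet3, Dnmt1 and Uhrf1), 1 for vincristine (Dnmt1), 0 for etoposide, 1 for prednisone (Dnmt3a) and 1 for all resistant cultures (Dnmt1). For cytarabine the log2 fold change was 0.44 ± 0.13 (SE) for Tet3, 0.44 ± 0.15 for Dnmt1 and 0.63 ± 0.26 for Uhrf1, all higher in 3 of 3 derivatives, with a smallest adjusted p of 0.404. For vincristine Dnmt1 had 0.44 ± 0.15 (higher in 2 of 3, adjusted p = 0.271). For prednisone Dnmt3a had -0.70 ± 0.25 (adjusted p = 0.513), fitted over both derivatives on the FPKM + 1 scale. Without the derivative of line 2883 it was -0.07, and without that of line 2641 it was -1.17. Each line term rests on all cultures of the line, so fitted values are not plain differences between a derivative and its parental library. On the same scale, that plain difference for Dnmt3a with prednisone was -0.94 in line 2883 and -0.07 in line 2641. For etoposide the smallest adjusted p was 0.651 (Eed, -0.20 ± 0.13, lower in 2 of 2). Over all resistant cultures Dnmt1 had 0.34 ± 0.14 (adjusted p = 0.481) and Eed -0.18 ± 0.09 (adjusted p = 0.543). The median log2 fold change of the 8 members was 0.30, 0.10, 0.07, 0.01 and 0.12 for cytarabine, vincristine, etoposide, prednisone and all resistant cultures, beside 0.02, -0.02, -0.03, 0.00 and 0.00 over all genes tested.

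**Figure D5:**
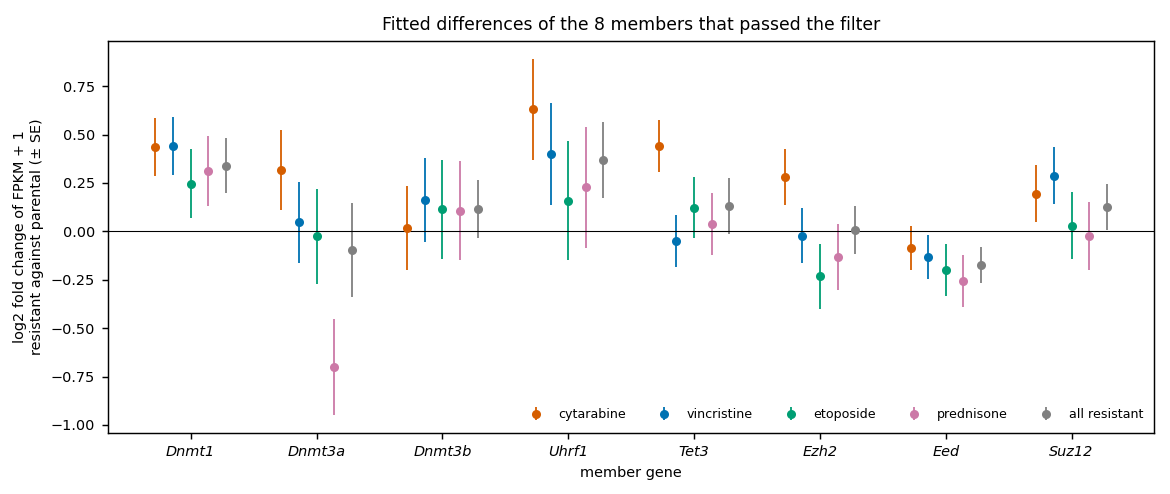
Log2 fold change of FPKM + 1 between resistant and parental cultures (y axis) with standard errors, by member (x axis) and comparison (colour), from the fits with 1 term per line. For cytarabine Tet3, Dnmt1 and Uhrf1 lie above 0 by more than 2 standard errors, and no value passed the adjusted threshold.

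The other genes of these pathways, 63 listed and 61 with a row, were described in the same fits. Of 51 tested, 0 were called by limma in any of the 5 comparisons. At an unadjusted p under 0.05 there were 5, 5, 8, 3 and 3 of the 51, beside 1037, 1289, 827, 853 and 907 of all 9309 genes. Nothing is read from these counts, from the signs or from the genes named below. Signs were 35 higher and 16 lower for cytarabine, 21 and 30 for vincristine, 27 and 24 for etoposide, and 29 and 22 both for prednisone and for all resistant cultures. Among PRC2 accessory genes, 8 tested, Epop, which limits PRC2 activity, had -0.71 ± 0.24 for etoposide and -0.69 ± 0.24 for prednisone. Among PRC1 genes, 16 tested, Rybp had 0.24 ± 0.09 for cytarabine and -0.26 ± 0.09 for vincristine, and Phc3 had -0.42 ± 0.16 for vincristine. Bmi1 had -0.88 ± 0.29 for etoposide and Phc1 0.40 ± 0.16 for prednisone. Asxl2, a cofactor of the Bap1 deubiquitinase, had -0.46 ± 0.14 for vincristine, and its paralog Asxl1 had 0.40 ± 0.18 for prednisone. Trim28, a corepressor, had 0.50 ± 0.18 for cytarabine. Idh1, which makes the 2-oxoglutarate that the Tet enzymes need, had -0.47 ± 0.21 for cytarabine and -0.76 ± 0.21 for vincristine, and Idh2 had 0.80 ± 0.31 for prednisone. Of the methyl-DNA readers, Mbd1 had -1.41 ± 0.42 and Zbtb38 0.55 ± 0.16 for etoposide.

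Levels of genes of DNA replication and proliferation, with which Dnmt1, Uhrf1 and Ezh2 are known to vary, are given beside these. All 25 listed were tested and 0 were called by limma in the 5 comparisons. At an unadjusted p under 0.05 there were 5, 3, 5, 0 and 0 of the 25, beside 1037, 1289, 827, 853 and 907 of all 9309 genes. Nothing is read from these counts. Their median log2 fold change was 0.17 for cytarabine, 0.06 for vincristine, -0.23 for etoposide, -0.02 for prednisone and 0.03 for all resistant cultures. For cytarabine E2f8 had 0.84 ± 0.15, Rrm2 0.65 ± 0.26, E2f2 0.61 ± 0.23 and Mki67 0.47 ± 0.16. For vincristine Tyms, which makes thymidylate, had 0.99 ± 0.36, Cdk1 -0.34 ± 0.13, Top2a 0.16 ± 0.19 and Mcm6 -0.12 ± 0.17. For etoposide Top2a, the target of that drug, had -1.61 ± 0.22 (adjusted p = 0.126), Birc5 -0.64 ± 0.20, Ccna2 -0.55 ± 0.17 and Cdk1 -0.52 ± 0.15. For prednisone E2f1 had 0.49 ± 0.31, Top2a -0.39 ± 0.22, E2f8 0.36 ± 0.18 and Ccne1 0.35 ± 0.21. Their part in the values of Dnmt1 and Uhrf1 was not tested.

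The genes whose log2 ratios over the 11 derivatives were closest to those of Dnmt3a, Tet2 and Tet1, the 3 most variable members, were found by the smallest root mean square difference of the deposited values, in which a library with 0 reads carries only the added 0.1 read. For Tet1 these were Gpr171 (0.90), Pde3b (0.95) and Isg20 (1.07), against a root mean square of 2.11 for Tet1 itself. For Tet2 they were Pitpnm1 (1.09), Cdkn2a (1.25) and Decr1 (1.43), against 2.79. For Dnmt3a they were Hook1 (2.08), Zfp945 (2.09) and Zfp267 (2.16), against 3.81. Several of these ratios have 0 reads behind them: Dnmt3a has none in either library for the 2 derivatives of line 2869, and Tet2 and Cdkn2a both have 0 reads in the prednisone-resistant library of line 2641.

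The search was therefore repeated with reads under 3 set to 3 and, for each member, without derivatives where both libraries held at most 3 reads, a choice made after these results were seen. Hook1 (1.17, over 9 derivatives) stayed first for Dnmt3a, followed by Dynlt3 (1.88) and Zfp267 (1.92), against 3.93 for Dnmt3a. Gpr171 (0.82) stayed first for Tet1, followed by Ccr4 (0.92) and Cd37 (0.99), against 1.69. For Tet2, all 3 genes were different, Sbsn (0.74), Mgst2 (0.75) and Ccng2 (0.89), against 1.61, so the list for Tet2 depends on how 0 reads are treated.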

How the data were processed

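The values deposited by the authors are FPKM for 13474 genes. Per the submitters' processing notes, cutadapt, STAR and Partek were used with mm10, and the counting method is not given in the sources used here. Libraries were made with a stranded mRNA kit, per the labels' protocols, and whether counting used strand is not stated. In all 13474 rows the length behind FPKM is the whole gene span, and 0.1 read per gene was added, judging from the values. CPM is FPKM times that length, and reads follow from the depth that genes at 0 reads imply. Of values between 0.5 and 200 reads, 70.5% to 75.7% per library were whole reads to within 0.05, too few for a count test. Intervals are exact (Clopper-Pearson, 95%). They cover counting error in single libraries and not the spread between cultures, so an interval that excludes 1 is no test of resistance.

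Fits used limma 3.58.1 in R 4.3.3 (eBayes with trend) on log2(FPKM + 1), over the 9309 genes that reached 1 FPKM in 2 or more of the 16 libraries, with 1 term per line and per drug (6 residual degrees of freedom) or 1 for resistance (10), and were tested on simulated data. The methotrexate derivative, 1 library, has no test. The line is the replicate block, since derivative and parental culture come from 1 cell line; across genes the own parental library correlated best in 11 of 11 derivatives (r 0.94 to 0.98). Exon lengths are from GENCODE vM21, in which 13077 of 13201 symbols found have the same start and end. Of listed genes, those past the threshold are named, otherwise up to 4 per comparison with the smallest p and the same sign in every derivative. A gene this choice includes is not reported here. Members and lists were chosen with earlier results of these data known, and the neighbours of Dnmt3a after their values were seen.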

Additional observations from a re-analysis of the deposited data

Results flagged for a closer look

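Tet2 in the parental library of line 2696 was at 1.59 FPKM, far above the other 4 parental libraries, which had 0.0204 to 0.453 FPKM. Its gap to the next library was 0.724 of the whole range, above the critical value of 0.710 for 5 samples; 10 members were examined in this way, and chance flags about 1 in 20 groups.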

How the results depend on the processing

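The count of members called and of pathway genes called was 0 in all 5 comparisons, and it was 0 under each of the 21 alternatives, 16 of which left out 1 library; in the fit with no replicate block, which drops the pairing of a derivative with its line, it was also 0. The smallest adjusted p of a member over these alternatives was 0.125 (Dnmt1 for vincristine, without the derivative of line 2883). Of 40 fold changes of members, 25 kept their sign in every alternative and 15 changed it in at least one. The Dnmt3a values move most with the scale: for prednisone -0.70 became -1.92 with a pseudocount of 0.1 and -2.76 on log2(CPM + 1), for vincristine 0.05 became -0.83 and for etoposide -0.03 became -1.13 on log2(CPM + 1). With no replicate block the prednisone value was -0.11. Median-of-ratios scaling, with factors of 0.962 to 1.05, reversed no ratio whose interval excluded 1. Depth limits Dnmt3a and Tet1 in line 2869, Tet2 in line 2641, and Dnmt3a in both derivatives of line 2696 and the methotrexate-resistant one of line 2883, each with at most 22 reads.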

Other observations

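Genes that these enzymes are known to silence were in part unread and in part varied between cultures. Of 18 germline genes known to be kept off by promoter methylation, only Brdt had a row: it held 146 to 398 reads in 15 libraries and 1259 in the vincristine-resistant library of line 2869, where the parental library had 146. Of 23 Polycomb targets, 15 had a row and 4 were tested, with 0 called by limma in the 5 comparisons. At an unadjusted p under 0.05 there were 0, 1, 1, 0 and 0 of the 4, beside 1037, 1289, 827, 853 and 907 of all 9309 genes. Nothing is read from these counts. Cdkn2a, the Ink4a/Arf tumour suppressor locus, had 1521 to 2164 reads in all 6 libraries of line 2883, 15 in the parental library of line 2641 and 0 in the other 9. Hoxb4 had a log2 fold change of 0.56 ± 0.20 (SE) for vincristine, 0.71 ± 0.24 for etoposide and -0.19 ± 0.24 for prednisone. In line 2883 Hoxb4 held 0 reads in the parental, 69 in the vincristine- and 48 in the etoposide-resistant library, and in line 2696 it held 14, 37 and 55. For prednisone the parental and resistant libraries held 0 and 0 reads in line 2883 and 1 and 0 in line 2641. These are too few to show a decrease. Igf2bp3 had 0.25 ± 0.18 for etoposide, with 17 parental and 1042 resistant reads in line 2883. The other derivatives of line 2883 had 258 reads with cytarabine, 170 with prednisone, 87 with vincristine and 15 with methotrexate. In line 2869 Igf2bp3 held 417 reads in the parental, 6 in the cytarabine- and 4 in the vincristine-resistant library. Cdkn1c had -0.51 ± 0.53 for cytarabine, -0.94 ± 0.62 for etoposide and -0.57 ± 0.63 for prednisone, with 209 reads in the parental library of line 2883 and 0 to 96 in its derivatives. Cdkn2a had -0.07 ± 0.09 for cytarabine, -0.01 ± 0.09 for vincristine and -0.08 ± 0.11 for prednisone. Pax6 held 3 reads in the parental and 176 in the etoposide-resistant library of line 2883, with 56 for cytarabine, 17 for vincristine, 1 for prednisone and 0 for methotrexate. Hoxa5, Hoxa7, Hoxa9, Hoxa10 and Hoxa11 held at most 7 reads in any library, those of line 2869 without Dnmt3a reads included. Lmo2, a T-ALL oncogene, was at 229 reads in the cytarabine-resistant and 124 in the vincristine-resistant library of line 2883 and at 0 in the parental one, with at most 13 reads elsewhere.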
